A study of Mus musculus with 14 samples.

Results

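A set of 10 core autophagy genes was followed in APT organoids, a line of tumor organoids from the mouse small intestine, in which the histone methyltransferase gene Suv4-20h2 (Kmt5c) was targeted with short hairpin RNAs. The 10 genes were Atg9a, Atg9b, Ulk1, Becn1, Atg5, Atg7, Atg16l1, Map1lc3b, Gabarapl1 and Sqstm1, out of 55424 genes listed in the count files of either set of libraries, and all 10 were listed and passed the filter on low counts in both sets. Atg9b was chosen because its counts were low in 2 libraries of the first hairpin, so its values for that hairpin are given as a description with no test. The other 9 genes were chosen for their known function.

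The poly(A) RNA-seq libraries fell into 4 groups. Hairpin 1 was directed to exon 4 of Suv4-20h2 and had 3 libraries (titled shSuv4-20h2_#1), set against 3 libraries of control 1 (shCtrl_#1). Hairpin 2 was directed to exon 9 and had 4 libraries (shSuv4-20h2_#2), set against 4 libraries of control 2 (shCtrl_#2). The organoids of all 4 groups, controls included, were kept for 4 days in 0.5 µg/ml doxycycline, the agent that switches on the hairpins. The labels call each hairpin a clone, so hairpin and clone cannot be told apart, and they do not say whether the libraries of a group came from separate cultures. The p-values are therefore set by library-to-library spread that may be technical only. The 2 sets were normalized separately, and levels set side by side across sets carry that limit. In such bulk RNA, fewer cells that express a gene and less RNA per cell cannot be told apart.

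Macroautophagy encloses cytoplasm in a double membrane, the autophagosome, which then fuses with the lysosome. The ULK kinase complex starts the process, a class III phosphatidylinositol 3-kinase complex that contains Beclin 1 marks the membrane, and ATG9 proteins, transmembrane lipid scramblases, arrive on small vesicles that help to seed it. A pair of linked conjugation reactions then attach ATG8 proteins such as LC3B to lipid, and receptors such as p62 bind both the cargo and the ATG8 coat. In the intestine, Atg16l1, Atg5 and Atg7 are best known for their part in the granule secretion of Paneth cells. Of the pair of ATG9 genes, Atg9a is expressed in most tissues and Atg9b in few.

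Total counts ran from 9272134 to 26284079 per library. The lowest count of any of the 10 genes in any library was 160 for Atg9a (exact Poisson 95% interval 136 to 187, counting error only). The targeted gene Kmt5c averaged 58.0 ± 5.59 CPM (counts scaled to the effective library size) in hairpin 1 libraries and 71.8 ± 4.25 CPM in control 1 libraries (SD, n = 3 each). It averaged 108 ± 6.40 CPM in hairpin 2 libraries and 124 ± 6.41 CPM in control 2 libraries (SD, n = 4 each). The groups did not overlap in either set, and neither difference passed edgeR's quasi-likelihood test (log2 fold change -0.31, adjusted p = 0.801; and -0.20, adjusted p = 0.0977, or 0.0074 with replicate number as a block). All 7 epithelial markers, among them Epcam and Cdh1, had counts in each library. Hairpin 1 replicate 1 stood apart: the 9 goblet cell markers summed to 121 CPM there, against 2276 and 2336 CPM in replicates 2 and 3 of hairpin 1 and 1071 to 1946 CPM in control 1. The Paneth cell marker Lyz1 was at 1.84 CPM there, against at least 352 CPM in the other 5 libraries of the set. The 7 fetal-like epithelial markers summed to 7049 CPM there and to no more than 2809 CPM elsewhere in the set, and the endothelial gene Cdh5 was at 49.6 CPM against at most 2.15 CPM, with Pecam1, another endothelial gene, at 0. Over the hairpin 1 libraries the median log2 difference from the control mean of the genes of chromosome 12 ran from 0.0046 to 0.67, and that of chromosome 14 from -0.69 to 0.09. Whether hairpin 1 replicate 1 came from the same organoid line as the rest of set 1 was not tested. The set 1 fold changes of the 10 genes are given with and without that library, and several other results of set 1 with all libraries only. The part of these markers in them was not tested.

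The ATG9 genes come first, with the stretch upstream of each start, since Atg9b was the gene chosen from these data. Atg9b (ENSMUSG00000038295) lies on chromosome 5 at 24384181 to 24392143 on the minus strand, and Atg9a (ENSMUSG00000033124) on chromosome 1 at 75180860 to 75192196 on the minus strand (GRCm38, GENCODE M21). The 250 bases upstream of the RefSeq start are printed 5′ to 3′ on the transcript's strand (GRCm38.p6), for Atg9b at chr5:24392144-24392393 and for Atg9a at chr1:75192011-75192260. The Atg9a window reaches into the longest transcript that GENCODE annotates. Those of Atg5 (plus strand, chr10:44268089-44268338) and Atg7 (plus strand, chr6:114670846-114671095) are shown beside them because they held the letters CACGTG, set in capitals. That 6-base word is the core of the site bound by TFEB, the transcription factor known for switching on autophagy and lysosome genes, and by several other basic helix-loop-helix factors. The RefSeq start of Atg7 lies inside the span that GENCODE gives the gene.
Atg9b: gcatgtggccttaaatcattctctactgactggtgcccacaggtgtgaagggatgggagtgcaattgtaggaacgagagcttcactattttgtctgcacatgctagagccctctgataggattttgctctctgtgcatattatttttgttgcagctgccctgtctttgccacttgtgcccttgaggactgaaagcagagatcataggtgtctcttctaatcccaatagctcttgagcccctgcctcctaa
Atg9a: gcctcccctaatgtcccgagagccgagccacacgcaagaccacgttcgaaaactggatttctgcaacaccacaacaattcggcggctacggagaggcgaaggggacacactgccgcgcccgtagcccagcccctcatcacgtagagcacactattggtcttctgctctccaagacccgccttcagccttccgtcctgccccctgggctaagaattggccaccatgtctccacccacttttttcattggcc
Atg5: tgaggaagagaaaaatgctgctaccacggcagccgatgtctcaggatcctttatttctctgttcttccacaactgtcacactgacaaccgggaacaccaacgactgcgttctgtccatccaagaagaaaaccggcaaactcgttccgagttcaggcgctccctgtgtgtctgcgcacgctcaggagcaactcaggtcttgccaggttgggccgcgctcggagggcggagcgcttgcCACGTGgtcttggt
Atg7: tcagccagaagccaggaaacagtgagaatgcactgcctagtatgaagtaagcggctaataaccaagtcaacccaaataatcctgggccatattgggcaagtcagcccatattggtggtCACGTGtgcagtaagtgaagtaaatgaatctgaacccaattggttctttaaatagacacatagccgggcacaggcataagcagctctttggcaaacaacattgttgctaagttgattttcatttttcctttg

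The stretches upstream of the ATG9 pair differed in base composition. That of Atg9b had 47.6% G and C and 1 CpG dinucleotide, and that of Atg9a had 58.8% G and C and 15 CpG dinucleotides, where the medians over all 32851 promoter windows were 52.4% and 6. RefSeq windows were found for 8 of the 10 genes (not Atg16l1 and Becn1). CACGTG, which reads the same on both strands, was in 2 of the 8 (25%), 14 bases upstream of the start in Atg5 and 132 bases upstream in Atg7. It was in 13 of 72 windows of the autophagy and lysosome genes described below (18.1%) and in 6.02% of all windows. The longer word TCACGTGA, which contains it, was in none of the 8, in 6 of the 72 (8.33%; Atg3, Atp6v1a, Ctsd, Gla, Mcoln1 and Nrbf2) and in 0.785% of all windows. The 8 and the 72 hold 1 window per gene, whereas all windows were counted without that limit, and base composition was not matched. A match is a description of these letters and not a measured site.

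Atg9b encodes the second ATG9 scramblase. It had 207, 51.9 and 47.9 CPM in hairpin 1 libraries, against 153, 179.5 and 189.7 CPM in control 1 libraries. Hairpin 1 replicates 2 and 3 were thus below each control, and replicate 1, the library that stood apart, was above each of them, so the groups overlapped. The log2 fold change was -0.77 with all libraries and -1.80 without hairpin 1 replicate 1. These are the values that chose the gene. The counts behind the low values were 924 and 904 reads, against 2632 to 3239 reads in control 1, and the 95% Poisson interval of the lowest was 846 to 965 reads.

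With hairpin 2, whose libraries had no part in the choice, Atg9b had 327, 319, 266 and 249.5 CPM, against 306, 279.5, 307 and 275 CPM in control 2 libraries. The hairpin 2 libraries reached both above and below the controls. The means were 290.5 ± 38.3 CPM in hairpin 2 and 291.9 ± 16.9 CPM in control 2 (SD, n = 4 each). The log2 fold change was -0.01 with a 95% interval of -0.21 to 0.20 (edgeR adjusted p = 0.985), and the exact two-sided permutation test of log2 CPM over 70 labelings gave p = 0.914, where the smallest possible value was 0.0286.

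Atg9a encodes the widely expressed ATG9 protein. It had 39.25, 10.8 and 8.48 CPM in hairpin 1 libraries, against 17.9, 20.3 and 14.35 CPM in control 1 libraries. As with Atg9b, replicate 1 was above each control and replicates 2 and 3 were below each of them. The log2 fold change was 0.16 (95% interval -1.20 to 1.51, edgeR adjusted p = 0.960), and -0.86 without hairpin 1 replicate 1 (adjusted p = 0.195). In set 2, Atg9a had 45.6, 48.5, 45.5 and 35.4 CPM in hairpin 2 libraries, against 44.9, 42.3, 45.4 and 42.8 CPM in control 2 libraries. Hairpin 2 replicate 4 was the lowest library of the set and hairpin 2 replicate 2 the highest, and the log2 fold change was 0.00 (-0.21 to 0.20, adjusted p = 0.997).

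**Figure D1:**
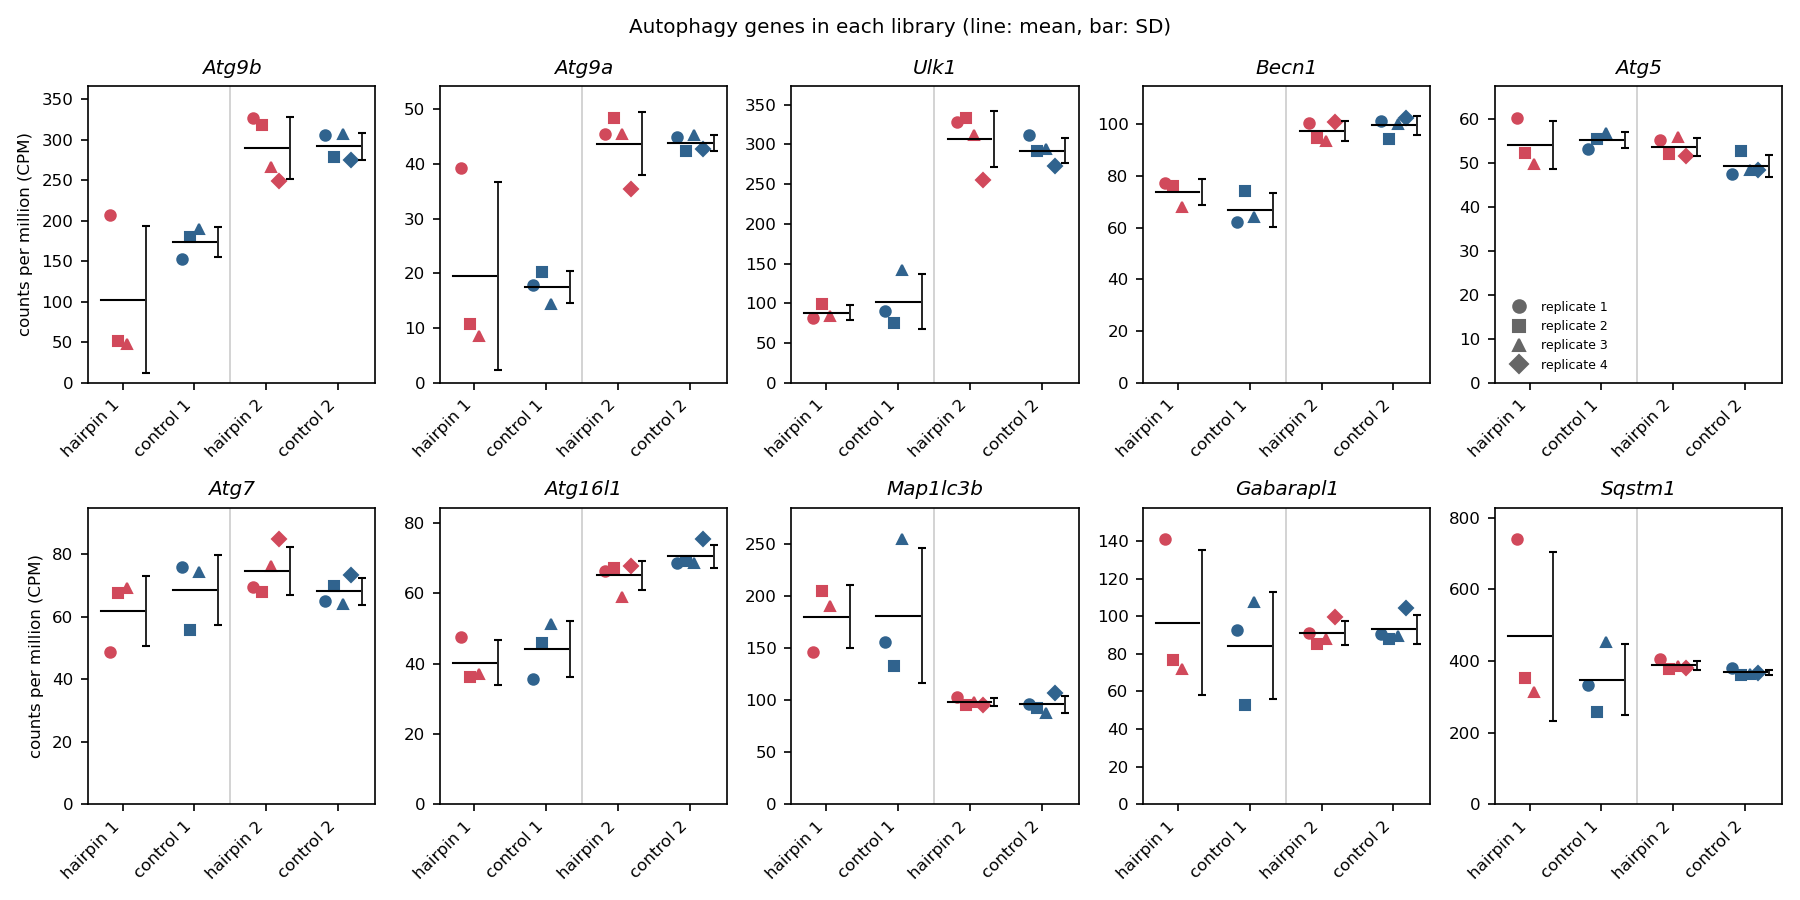
CPM (vertical axis, from 0) of the 10 autophagy genes in each of the 14 libraries, with points for libraries (red hairpin, blue control, one shape per replicate number), lines for means and bars for SD. Atg9b in hairpin 1 was at 207, 51.9 and 47.9 CPM, with replicate 1 above and replicates 2 and 3 below the control 1 range of 153 to 189.7 CPM, while hairpin 2 and control 2 averaged 290.5 and 291.9 CPM.

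Per kilobase of exon, Atg9b was the more abundant of the pair in each of the 14 libraries. The exon length merges the exons of all annotated transcripts, 3946 bases for Atg9b and 5762 for Atg9a. It can exceed the length of the transcripts present, and the share of the pair depends on it. In CPM, too, Atg9b was the higher in each library. It was at 52.5, 13.2 and 12.1 CPM per kb in hairpin 1 libraries, against 38.8, 45.5 and 48.1 CPM per kb in control 1 libraries, while Atg9a was at 6.81, 1.88 and 1.47 CPM per kb, against 3.11, 3.52 and 2.49 CPM per kb. Atg9b made up 88.5%, 87.5% and 89.2% of the pair's summed level per kb in hairpin 1 libraries, against 92.6%, 92.8% and 95.1% in control 1 libraries. All 3 hairpin 1 libraries were below each control, replicate 1 included, and no test is given because Atg9b was chosen from these libraries. The CPM of each of the pair overlapped between these groups. Over all genes tested in set 1, the CPM of single genes did not overlap for 12.8%. That is another measure than the share of a pair, for which no background was taken. In set 2 the share was 91.3%, 90.6%, 89.5% and 91.2% with hairpin 2, against 90.9%, 90.6%, 90.8% and 90.4% in control 2. These groups overlapped, and the exact permutation test of the log2 ratio of Atg9b to Atg9a gave a difference of -0.0025 and p = 1 over the 70 labelings.

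**Figure D2:**
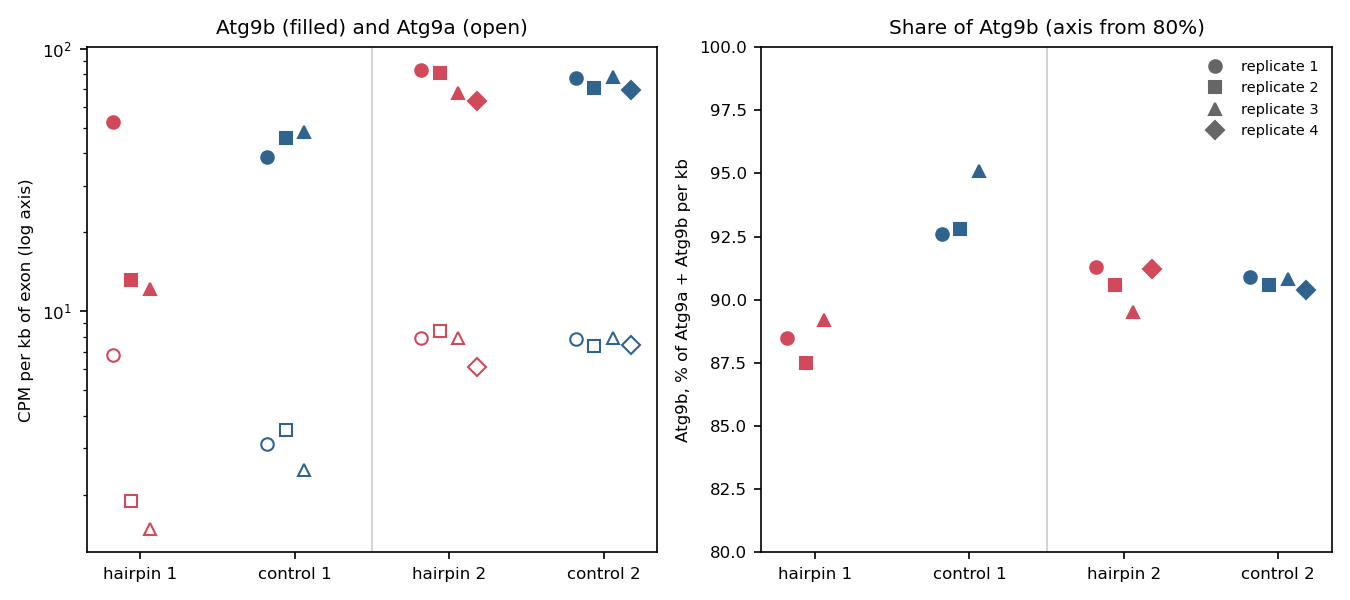
Left, Atg9b (filled) and Atg9a (open) per library in CPM per kb of exon on a log axis; right, Atg9b as a percentage of the pair's sum, with the axis starting at 80%. Both genes were highest in hairpin 1 replicate 1 within set 1, and the Atg9b share was 87.5% to 89.2% in hairpin 1 and 92.6% to 95.1% in control 1.

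Ulk1, the kinase that starts autophagosome formation, had 81.8, 99.0 and 84.5 CPM in hairpin 1 libraries, against 90.2, 74.8 and 141.5 CPM in control 1 libraries. The hairpin libraries lay inside the control range (log2 fold change -0.21, 95% interval -0.83 to 0.41, edgeR adjusted p = 0.885). In set 2 it had 327.5, 333, 312 and 256 CPM with hairpin 2, against 311, 291, 294 and 272 CPM in control 2. Replicate 4 was the lowest library of each of these groups, and the log2 fold change was 0.07 (-0.12 to 0.26, adjusted p = 0.711). Becn1, which encodes the Beclin 1 subunit of the lipid kinase complex, had 77.1, 76.1 and 68.1 CPM in hairpin 1 libraries, against 62.2, 74.4 and 63.9 CPM in control 1 libraries, and 101, 94.5, 93.5 and 101 CPM in hairpin 2 libraries, against 101, 94.4, 100.2 and 102.5 CPM in control 2 libraries. The groups overlapped in both sets, with log2 fold changes of 0.14 (-0.27 to 0.55, adjusted p = 0.877) and -0.03 (-0.15 to 0.09, adjusted p = 0.802).

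The conjugation genes differed little. Atg5, which forms the ATG12-ATG5 conjugate, had 60.3, 52.2 and 49.7 CPM in hairpin 1 libraries, against 53.2, 55.5 and 56.7 CPM in control 1 libraries. In set 2 it had 55.1, 52.05, 55.8 and 51.6 CPM with hairpin 2, against 47.4, 52.8, 48.4 and 48.5 CPM in control 2. Control 2 replicate 2 lay among the hairpin 2 libraries and the other controls were below each of them, and the log2 fold change was 0.12 (-0.01 to 0.26, edgeR adjusted p = 0.300). Atg7, the E1-like enzyme of both conjugation reactions, had 48.7, 67.5 and 69.1 CPM in hairpin 1 libraries, against 75.7, 55.7 and 74.1 CPM in control 1 libraries, and here the library that stood apart was the lowest. With hairpin 2 it had 69.4, 67.7, 76.2 and 84.7 CPM, against 65.1, 69.8, 64.15 and 73.4 CPM in control 2, and the groups overlapped (log2 fold change 0.13, -0.06 to 0.31, adjusted p = 0.443).

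Atg16l1 directs the ATG8 conjugation machinery to the membrane, and its human counterpart carries a known risk variant for Crohn's disease. It had 47.6, 36.2 and 37.05 CPM in hairpin 1 libraries, against 35.55, 45.9 and 51.4 CPM in control 1 libraries, and the groups overlapped. In set 2 it had 66.25, 67.4, 59.1 and 67.9 CPM with hairpin 2, against 68.7, 69.3, 68.8 and 75.4 CPM in control 2. Each hairpin 2 library was below each control, which made Atg16l1 the only one of the 10 genes whose groups did not overlap in set 2, where 15.3% of all genes tested did not overlap and 8.42% did not with the hairpin lower. Its log2 fold change was -0.11 (95% interval -0.25 to 0.03) and did not pass the test (edgeR adjusted p = 0.371).

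Map1lc3b, Gabarapl1 and Sqstm1 encode LC3B, a GABARAP-class ATG8 protein and the receptor p62, and all 3 are known targets of TFEB-family or stress-responsive transcription factors. Map1lc3b had 146, 205 and 189.7 CPM in hairpin 1 libraries, against 155.5, 132.5 and 254 CPM in control 1 libraries. Gabarapl1 had 141, 76.8 and 71.8 CPM in hairpin 1 libraries, against 92.8, 52.9 and 108 CPM in control 1 libraries. Control 1 replicate 3 was the highest and replicate 2 the lowest of the controls for both, and the controls spanned the hairpin 1 libraries for Map1lc3b.

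Sqstm1 had 739.8, 353 and 313.5 CPM in hairpin 1 libraries, against 332, 258 and 454 CPM in control 1 libraries. The library that stood apart was the highest of the set for Sqstm1, and the other hairpin 1 libraries lay inside the control range, with the same control replicates highest and lowest. The log2 fold change of Sqstm1 was 0.43 (95% interval -0.46 to 1.32, edgeR adjusted p = 0.835), and -0.07 without hairpin 1 replicate 1. That of Map1lc3b was -0.01 (-0.67 to 0.66, adjusted p = 0.996) and 0.12 without it, and that of Gabarapl1 was 0.19 (-0.65 to 1.04, adjusted p = 0.924) and -0.19 without it.

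In set 2 these genes were far less spread. Map1lc3b had 103, 95.3, 98.3 and 94.9 CPM with hairpin 2, against 96.6, 92.3, 87.9 and 107 CPM in control 2. Gabarapl1 had 91.3, 85.3, 87.95 and 99.55 CPM with hairpin 2, against 90.5, 87.75, 89.6 and 104 CPM in control 2, with replicate 4 the highest of each group. Sqstm1 had 405, 378, 386 and 381 CPM with hairpin 2, against 379, 362, 365 and 366 CPM in control 2. For Sqstm1, hairpin 2 replicate 2 was below the highest control alone and the other hairpin 2 libraries were above each control, and the 95% interval of its log2 fold change of 0.07 was -0.03 to 0.18 (edgeR adjusted p = 0.450). The intervals were -0.12 to 0.18 for Map1lc3b (adjusted p = 0.872) and -0.20 to 0.13 for Gabarapl1 (adjusted p = 0.864).

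**Figure D3:**
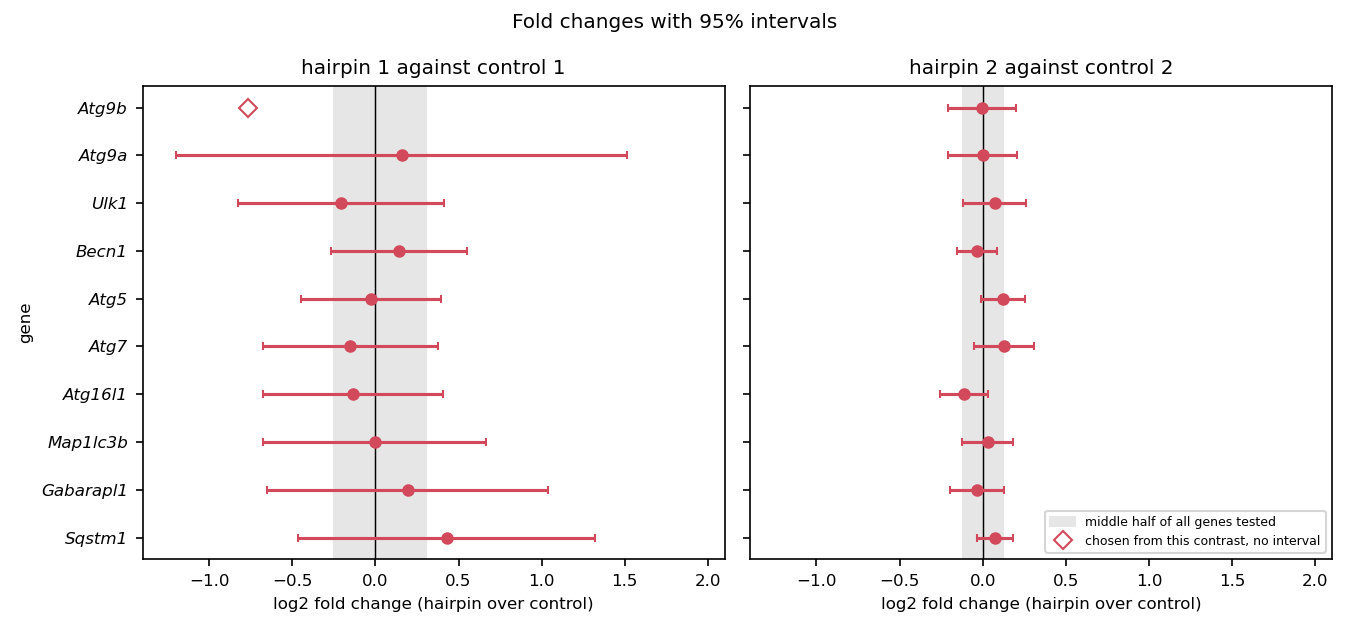
Log2 fold change of hairpin over control (horizontal axis) for each of the 10 genes, with edgeR 95% intervals; the grey band holds the middle 50% of all genes tested and the open diamond is Atg9b in hairpin 1, given without an interval. Intervals were wide in set 1 (-1.20 to 1.51 for Atg9a) and narrow in set 2 (-0.21 to 0.20 for Atg9a), and each one drawn included 0.

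Of the 10 genes, 0 passed an adjusted p of 0.05 with hairpin 2, where 854 of 14126 genes tested passed (6.05%), and 0 of the 10 had an unadjusted p under 0.05, against 19.8% of all genes. Their median log2 fold change was 0.01, with 5 above 0 and 5 below, against a median of 0.00 over all genes. With hairpin 1, 0 of the 9 genes other than Atg9b passed, at the adjusted and at the unadjusted threshold alike, where 0 of 13540 genes passed (0%) and 733 had an unadjusted p under 0.05 (5.41%). DESeq2's Wald test called 18 genes with hairpin 1, and none of these 9. The median over the 9 was -0.01, against 0.03 over all genes, and -0.12 without hairpin 1 replicate 1, with 2 above 0 and 7 below, against -0.02 over all genes. With and without that library, the log2 fold changes were -0.21 and -0.16 for Ulk1, 0.14 and 0.11 for Becn1, and -0.03 and -0.12 for Atg5. They were -0.15 and -0.01 for Atg7, and -0.14 and -0.28 for Atg16l1. Counts simulated at the spread of set 1 were recovered by the test for 1% of genes changed 2-fold and 62% changed 4-fold. A 2-fold change was thus hardly detectable there, whereas set 2 recovered 100% at both sizes. False calls numbered 1 in set 1 and 14 in set 2. The simulation gave all libraries of a set the same spread, unlike the data, where hairpin 1 replicate 1 stood apart. Changes under 2-fold were not simulated.

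Levels per kilobase of exon put Sqstm1 first in each of the 4 groups, at 140 ± 70.2 CPM per kb in hairpin 1 and 104 ± 29.4 in control 1, and 115.5 ± 3.64 in hairpin 2 and 109.7 ± 2.30 in control 2. Atg9b was the third in hairpin 1 at 25.9 ± 23.0 CPM per kb, where it did not differ beyond the spread from Gabarapl1 (47.9 ± 19.2) or Map1lc3b (24.0 ± 4.07), and the second in control 1 at 44.1 ± 4.77 CPM per kb, within the spread of Gabarapl1 (41.9 ± 14.1). It was also the second in set 2, at 73.6 ± 9.72 CPM per kb in hairpin 2 and 74.0 ± 4.28 in control 2. Ulk1 was at 13.6 ± 1.42 CPM per kb in hairpin 1 and 15.7 ± 5.38 in control 1, but at 47.3 ± 5.46 in hairpin 2 and 45.03 ± 2.45 in control 2, beside Gabarapl1 at 45.2 ± 3.07 and 46.2 ± 3.76 in those groups. Atg5 was the fifth in all 4 groups, but in set 1 its gap to Map1lc3b was within the spread: Atg5 was at 23.0 ± 2.35 CPM per kb in hairpin 1 and 23.4 ± 0.766 in control 1, and Map1lc3b was at 24.0 in both (SD 4.07 and 8.59). Atg9a and Atg16l1 took the lowest places in each group, and their order differed between the sets: Atg9a was at 3.39 ± 2.97 and Atg16l1 at 4.18 ± 0.663 CPM per kb in hairpin 1, and Atg9a was at 7.59 ± 0.997 and Atg16l1 at 6.77 ± 0.427 in hairpin 2. The gap exceeded both SDs together in control 1, where Atg16l1 was at 4.60 ± 0.833 and Atg9a at 3.04 ± 0.521, and not in the other groups. All these places depend on the merged exon lengths, such as 9628 bases for Atg16l1 and 2352 for Atg5. In CPM, Atg16l1 averaged 70.5 and Atg5 49.3 in control 2, the reverse of their order per kb. In control 1 they averaged 44.3 and 55.1 CPM, in the same order as per kb.

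The rest of the pathway was described with 8 lists by role, holding 89 genes with the 10 included, of which 87 were tested in each set (not Calcoco2 and Mitf). In the hairpin 2 fit without the replicate block, 4 of the 87 passed (4.60%), 3 higher and 1 lower. Over all genes 6.05% passed, 2.04% higher and 4.01% lower, so the pathway's total share was no larger than that of genes at large. By direction, its share of higher calls was above that of all genes and its share of lower calls was below, on these few genes. The median log2 fold change of the 87 was 0.03, and groups did not overlap for 11 (12.6%), 8 with the hairpin higher and 3 lower, against 6.88% and 8.42% of all genes. Ulk2, the second ULK kinase, had 23.4, 22.1, 22.7 and 24.7 CPM with hairpin 2, against 16.95, 18.9, 17.1 and 16.45 CPM in control 2 (log2 fold change 0.42, SE 0.0760, edgeR adjusted p = 0.00997). All 4 hairpin 2 libraries were above each control. The other ULK kinase, Ulk1, overlapped between the same libraries, as given above.

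Both other genes that passed higher with hairpin 2 in the fit without the block act where the autophagosome meets the lysosome. Stx17, the SNARE of the closed autophagosome, had 43.8, 44.7, 40.6 and 49.8 CPM with hairpin 2, against 36.9, 34.6, 35.8 and 34.4 CPM in control 2 (log2 fold change 0.34, edgeR adjusted p = 0.0213). Vps41, a subunit of the HOPS tether, had 67.1, 69.96, 69.8 and 67.3 CPM with hairpin 2, against 54.9, 56.1, 58.65 and 55.65 CPM in control 2 (0.28, adjusted p = 0.0105). Neither gene overlapped between the groups. Vps41 lies on chromosome 13, whose genes had a median log2 fold change of 0.195 with hairpin 2, and the part of the chromosome in its value was not tested. Of the 9 fusion genes, the other 7 did not pass in that fit. Epg5, which tethers autophagosomes to late endosomes, was at 0.26 (edgeR adjusted p = 0.0709, or 0.00612 with the block).

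Gla, which encodes the lysosomal alpha-galactosidase, was the 1 gene of the 87 that passed lower with hairpin 2 in the fit without the block. It had 11.9, 12.35, 12.1 and 10.96 CPM, against 15.5, 17.7, 15.7 and 16.6 CPM in control 2 (log2 fold change -0.47, SE 0.0837, edgeR adjusted p = 0.00938), with no overlap. Of the 24 lysosomal and TFEB-family genes tested no other passed in that fit. The list had 11 values above 0 and 13 below, with a median of -0.01. Neu1, a lysosomal sialidase, had 144, 147, 139.9 and 226 CPM with hairpin 2, against 214, 211, 193 and 389 CPM in control 2. Its log2 fold change was -0.62 (edgeR adjusted p = 0.173, or 1.5e-05 with the block). Replicate 4 was far above the other Neu1 libraries in both groups.

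Enterocyte markers were lower in the same hairpin 2 libraries. The 7 enterocyte markers summed to 319 to 381 CPM with hairpin 2, against 440 to 473 CPM in control 2, and Apoa1 was at 0 in 3 of the 4 hairpin 2 libraries and in 1 control. Of the 5 that were tested, Krt20, Fabp2, Slc5a1 and Mgam fell (adjusted p of at most 0.00604) and Vil1 did not pass (log2 fold change -0.06, edgeR adjusted p = 0.641). The median log2 difference of the 5 from the control mean was -2.18 to -1.41 in hairpin 2 libraries, against -0.12 to 0.16 in control 2 libraries. Krt20, a keratin of mature villus cells, was at 7.62, 5.05, 7.36 and 7.39 CPM with hairpin 2, against 39.1, 39.9, 43.6 and 47.3 CPM in control 2. The 9 goblet cell markers summed to 136 to 243 CPM with hairpin 2, against 170 to 322 CPM in control 2, and the 8 Paneth cell markers to 45.1 to 83.2 CPM, against 88.8 to 159.9 CPM. The goblet sums overlapped between the groups and the Paneth sums did not. The fall was not limited to these lists. The 7 epithelial markers summed to 4393 to 5017 CPM with hairpin 2, against 5553 to 5700 CPM in control 2. The 5 stem cell markers overlapped in sum, but their median log2 difference was -0.324 to -0.204, against -0.0947 to 0.062. The 7 fetal-like markers summed to 2474 to 3147 CPM, against 3207 to 3341 CPM, and their medians overlapped. The part of these markers in the calls of Ulk2, Stx17, Vps41 and Gla was not tested.

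With replicate number as a block, 14 of the 87 passed with hairpin 2 (16.1%), 11 higher and 3 lower, against 20.4% of all genes. The 4 genes above were among them, and 10 others joined. Of these, 2 were lower: Neu1 (-0.59, adjusted p = 1.5e-05) and Prkaa1 (-0.22, 0.00799). The 8 that were higher were Epg5 (0.26, 0.00612), Atg4c (0.46, 0.0136), Rb1cc1 (0.18, 0.0141), Bnip3 (0.15, 0.0211), Atp6v1h (0.14, 0.0317), Atg2b (0.14, 0.0381), Rubcn (0.15, 0.0392) and Wipi1 (0.13, 0.0466). None of the 10 core genes passed with the block either. The 4 calls were lost in one model of all 14 libraries, whose spread includes that of set 1 (adjusted p = 0.344 to 0.739). The Stx17 call was also lost on leaving out any one of hairpin 2 replicates 1 and 2 or control 2 replicates 1 to 4, with adjusted p up to 0.0782.

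**Figure D4:**
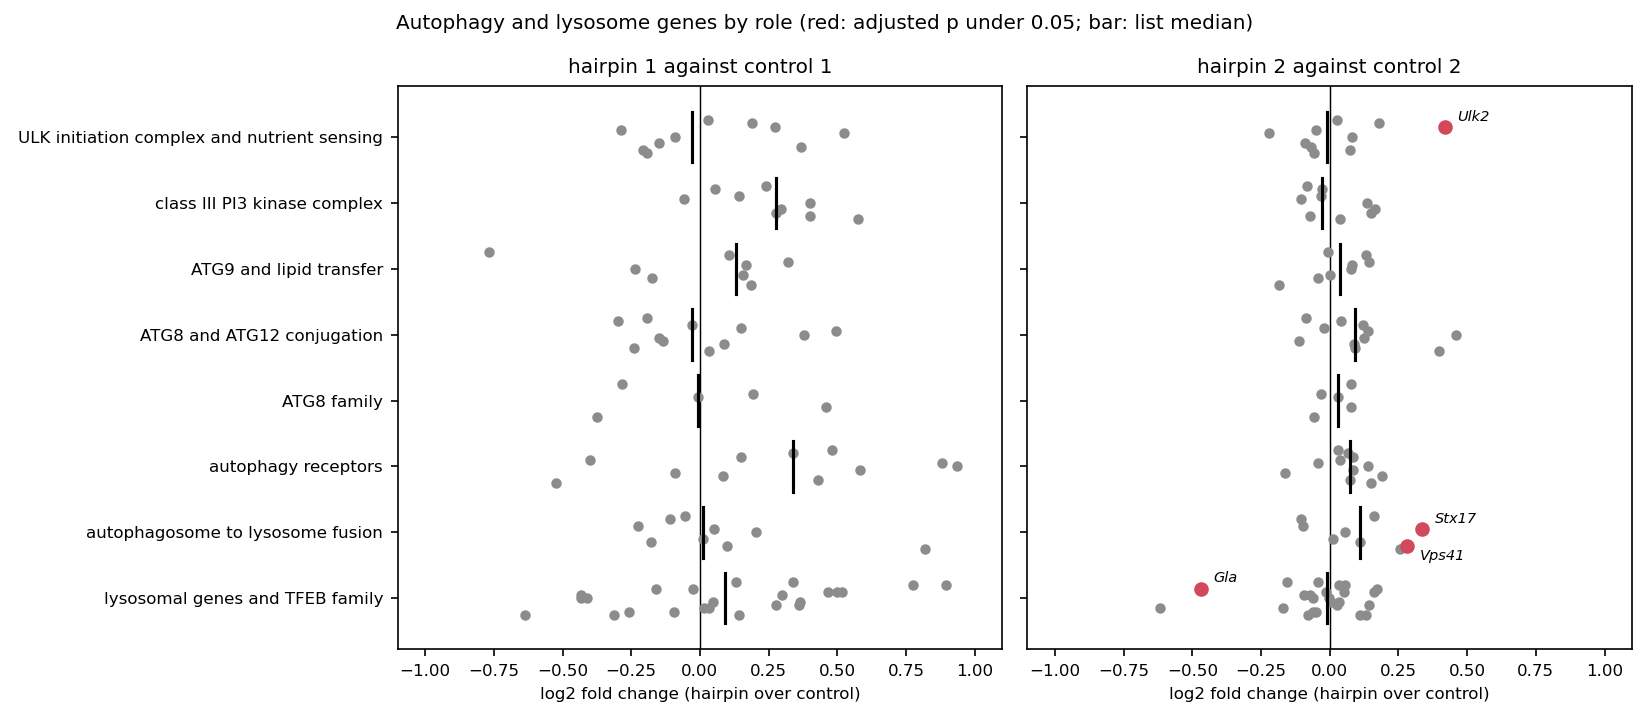
Log2 fold change of hairpin over control (horizontal axis) of the 87 tested autophagy and lysosome genes in 8 lists by role (rows), with a point per gene, a black bar at each list's median and red points for genes past an adjusted p of 0.05. With hairpin 2, in the fit without the replicate block, Ulk2, Stx17 and Vps41 passed higher and Gla lower. With hairpin 1 no tested gene passed, and the lowest point is Atg9b at -0.77, which was not tested there.

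With hairpin 1, 0 of the 86 genes other than Atg9b passed, and 6 had an unadjusted p under 0.05 (6.98%, against 5.41% over all genes): Prkaa1, Gabarapl2, Nbr1, Fundc1, Retreg1 and Tpp1. Their median log2 fold change was 0.09 with all libraries and -0.11 without hairpin 1 replicate 1, when 31 were above 0 and 55 below. With all libraries the groups did not overlap for 16 (18.6%), 13 with the hairpin higher and 3 lower, against 6.5% and 6.34% of all genes. The list of autophagy receptors was likewise highest in that library: its median log2 difference from the control mean was 0.65 in replicate 1, 0.14 in replicate 2 and -0.15 in replicate 3. Nbr1, a receptor akin to p62, was at 262, 130.0 and 113 CPM in hairpin 1 libraries, against 103, 85.3 and 86.5 CPM in control 1 libraries. Retreg1, a receptor for the endoplasmic reticulum, was at 54.1, 71.6 and 52.8 CPM in hairpin 1 libraries, against 35.9, 26.3 and 31.15 CPM in control 1 libraries, with each hairpin library above each control. Its log2 fold change was 0.94 (edgeR adjusted p = 0.801), and it was the 1 gene of the 86 to pass in the model of all 14 libraries (adjusted p = 0.0213). The spread in that model includes that of set 2, whose libraries mostly agreed more closely. Chi-square per gene of pairs within a group was 3.01 to 33.9 in set 2, against 24.0 to 288 in set 1. The higher values of set 2 were those of pairs with a replicate 4 library. Genes outside the lists also passed in it with hairpin 1, as counted in the last section, so that passing was not particular to Retreg1.

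Whether both hairpins had the same effect was tested as a difference of log2 fold changes in a model of the 4 groups. Of 15043 genes, 62 passed (0.412%), and 0 of the 87 autophagy genes tested in it (Mitf among them, Atg9b left out) did by edgeR, while DESeq2's Wald test called 3 (Prkaa1, Retreg1 and Tpp1) and 12% of all genes had an unadjusted p under 0.05. For the 9 core genes other than Atg9b the differences, hairpin 1 minus hairpin 2, lay between -0.27 (Ulk1) and 0.36 (Sqstm1), with adjusted p from 0.603 to 1.00. Prkaa1, which like Prkaa2 encodes a catalytic subunit of the AMP-activated kinase upstream of Ulk1, came nearest. It had 67.8, 70.3 and 71.7 CPM in hairpin 1 libraries, against 51.5, 56.1 and 38.4 CPM in control 1 libraries, and 107, 104, 112 and 87.3 CPM in hairpin 2 libraries, against 114, 121, 131 and 112 CPM in control 2 libraries. The groups did not overlap in either set and the order was opposite, with a difference of 0.76 (SE 0.188, edgeR adjusted p = 0.111). In set 2 the gap was very small. Hairpin 2 replicate 3 and control 2 replicate 4 were at -0.096 and -0.088 in log2 difference from the control mean. Prkaa1 is described here because it came nearest to passing. With hairpin 2 alone its log2 fold change was -0.22 (edgeR adjusted p = 0.165, or 0.00799 with the replicate block).

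Without hairpin 1 replicate 1 the same test called 5 of those 87 genes: Atg9a (-0.82, SE 0.218, adjusted p = 0.0395), Bnip3 (-1.81, adjusted p = 0.00892), Prkaa1 (0.81, adjusted p = 0.0236), Retreg1 (0.90, adjusted p = 0.0178) and Gla (0.65, adjusted p = 0.0494). In that setting 959 genes passed in all, against 62 of 15043 with all libraries, so passing there was not particular to the autophagy genes. The number of genes tested in that setting is not given here. Bnip3, a receptor for mitochondria, had 82.45, 15.4 and 19.2 CPM in hairpin 1 libraries, against 88.0, 42.5 and 38.1 CPM in control 1 libraries. Its replicate 1 was inside the control range, and its replicates 2 and 3 were below each control.

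The genes whose pattern was most like that of Atg9b were sought among 10787 genes, by Pearson's r of log2 CPM over the 14 libraries after centring each set. The 5 nearest were Kif1c, a kinesin (r = 0.986), Mark2, a polarity kinase (0.973), Srrm2, a splicing factor (0.960), Sap130, a subunit of the SIN3 corepressor complex (0.959), and Hmgxb3 (0.957). Within the 8 libraries of set 2 alone their r values were 0.508, 0.546, 0.377, 0.734 and 0.906, so the likeness of the first 3 lay mostly in set 1, where hairpin 1 replicates 2 and 3 were low. Hmgxb3 averaged 34.3 ± 20.8 CPM in hairpin 1 libraries and 42.1 ± 1.36 CPM in control 1 libraries (SD, n = 3 each). Its set 2 means were 74.6 ± 3.78 CPM with hairpin 2 and 73.6 ± 2.22 CPM in control 2 (SD, n = 4 each). Atg9a ranked 259th (r = 0.811; 0.812 in set 1 and 0.778 in set 2) and was the nearest of the 9 other core genes. Atg7 was the most unlike, at -0.374 over all libraries and -0.844 in set 2. The libraries of a group share their treatment, so these values describe the 14 libraries and carry no test.

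Atg9b has close neighbours on chromosome 5, and their counts were read beside it. Its 3′ end shares 294 exonic bases (24384181 to 24384474, 7.45% of its 3946 exonic bases) with Nos3, the endothelial nitric oxide synthase gene on the plus strand. The library kit keeps strand, but whether the counting used it is not given in the sources used here. Nos3 was at 3.11, 0.0562 and 0.424 CPM in hairpin 1 libraries, against 0.407, 0.236 and 0.351 CPM in control 1 libraries, and at 2.74 to 3.91 CPM in hairpin 2 libraries, against 2.60 to 3.61 CPM in control 2 libraries. These levels were far below those of Atg9b in each library, although hairpin 1 replicate 1 was the highest of set 1 for both genes.

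Of the other genes within 50 kb tested in set 1, only Asic3, at a low level, fell as far as Atg9b without hairpin 1 replicate 1. Without replicate 1, where Atg9b was at -1.80, the log2 fold changes were -0.09 for Abcb8, a mitochondrial transporter that starts next to it on the other strand, 0.12 for Cdk5, -0.26 for Slc4a2, 0.06 for Fastk and -0.23 for Kcnh2. Asic3 was at -2.80, but on 0.281 and 0.530 CPM in hairpin 1 replicates 2 and 3, against 0.826 to 5.68 CPM in control 1 libraries. Slc4a2, an anion exchanger, had 114, 131 and 117 CPM in hairpin 1 libraries, against 143, 150.1 and 152 CPM in control 1 libraries, and was the 1 neighbour whose groups did not overlap in set 1 (log2 fold change -0.30, edgeR adjusted p = 0.801).

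With hairpin 2, Fastk had 145, 143, 132 and 140.4 CPM, against 122, 126.5, 121 and 122 CPM in control 2 (log2 fold change 0.19, edgeR adjusted p = 0.0545, or 0.0078 with the replicate block). Kcnh2 had 32.1, 31.7, 32.8 and 39.5 CPM with hairpin 2, against 30.2, 27.4, 25.05 and 20.2 CPM in control 2 (0.40, adjusted p = 0.0933, or 0.0269 with the block). Neither gene overlapped between the groups. Over the 715 genes of chromosome 5 that averaged 5 CPM or more, the median log2 fold change was 0.12 with hairpin 2, and between 0.106 and 0.125 in each of its libraries, so that Atg9b, at -0.01, and Ulk1, at 0.07, were below the median of their chromosome. The part of that chromosome-wide difference in the values of Atg9b, Ulk1, Fastk and Kcnh2 was not tested.

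**Figure D5:**
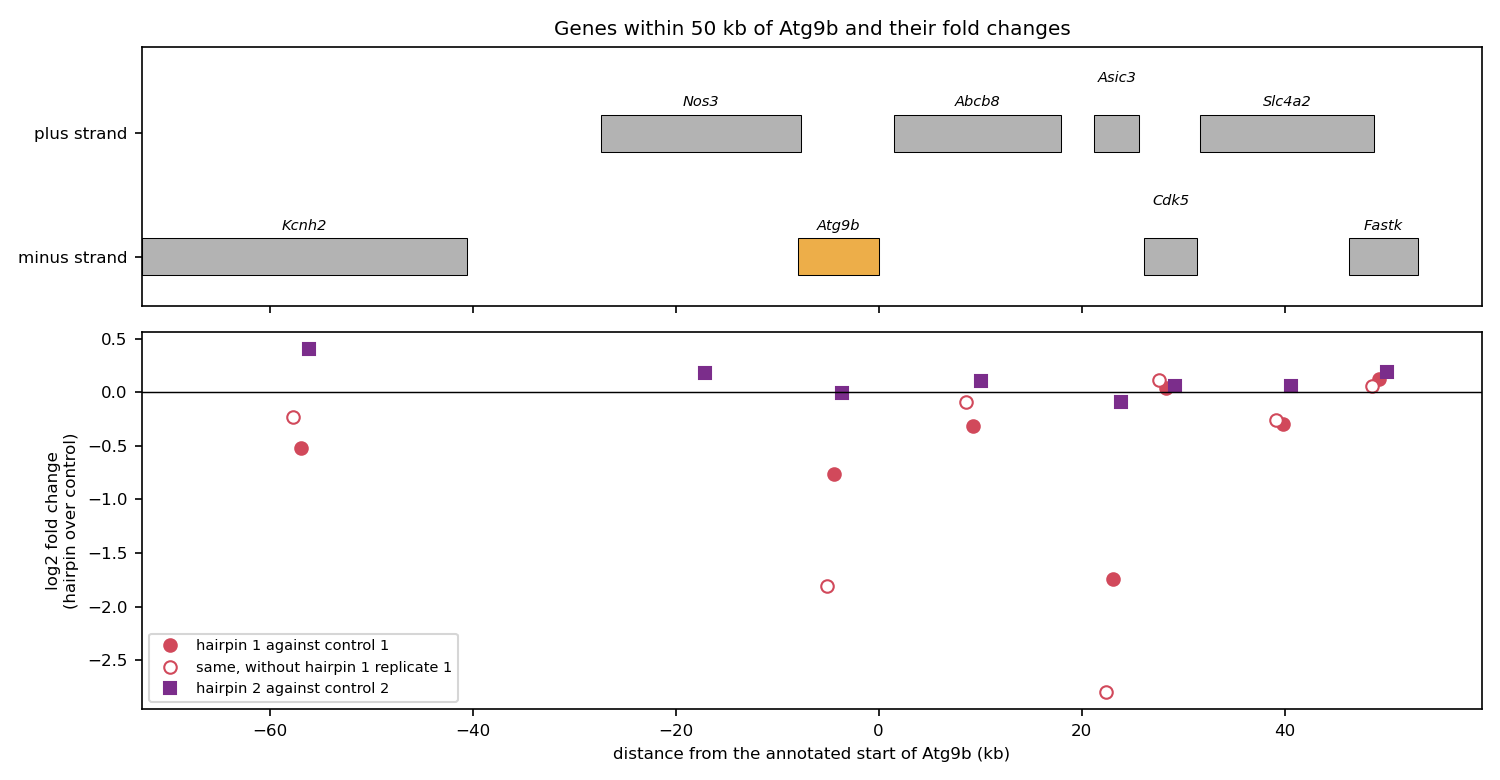
Top, genes within 50 kb of the annotated start of Atg9b by strand (horizontal axis, distance in kb); bottom, their log2 fold changes of hairpin over control, with filled circles for hairpin 1, open circles for hairpin 1 without replicate 1 and squares for hairpin 2. Without replicate 1 Atg9b was at -1.80 and Abcb8 next to it at -0.09, and Asic3 at -2.80 rested on under 1 CPM in those hairpin libraries.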

How the data were processed

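RNA was prepared with a stranded poly(A) kit, per the labels' protocols. Each library has 1 deposited file of whole-number counts per gene, with no sign of normalization in the values. Per the submitters' processing notes, reads were handled with STAR and featureCounts on GRCm38, and bcl2fastq 2.20, FastQC and DESeq2 are also named. Whether counting used strand is not given in the sources used here.

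The 10 genes, the gene lists and the tests were chosen with earlier results of these data known. Symbols and exon lengths came from GENCODE M21 and promoter windows from RefSeq (GRCm38.p6). Exon lengths merged the exons of all annotated transcripts of a gene. CPM used library totals (9272134 to 26284079 counts) scaled by TMM factors, and log2 CPM used a pseudocount of 0.5. Hairpin and control were compared within each set by the quasi-likelihood test of edgeR 4.0.16 in R 4.3.3, with the filterByExpr filter, Benjamini-Hochberg adjustment over all genes tested and a threshold of 0.05. DESeq2 1.42.0, limma 3.58.1, other scalings, the block, a model of all 14 libraries and leaving out each library were alternatives. The voom weights and leaving out both replicate 4 libraries were added after the data were seen. The fits were tested on simulated counts.

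Named besides the 10 were Kmt5c, up to 6 genes per list past the threshold, genes within 50 kb of Atg9b that passed the filter, and the 5 genes most like it (mean of at least 1 CPM in each set). Others named were chosen after their values were seen. Libraries of the same replicate number deviated together in set 2 (r = 0.214 to 0.66, other numbers -0.461 to 0.265). Numbers were therefore taken to pair them in the block, from the data and not the labels. The main hairpin 2 fit and the permutation tests did not use these pairs. A gene that did not pass there did not pass without the pairing only. In set 1 the r values were 0.254, -0.00383 and 0.287 (other numbers -0.265 to 0.175), and numbers were not taken to pair. Set 1 replicates 1 and 3 were nonetheless above the range of other numbers. Set 2 replicate 2, at 0.214, was within its own range. The choice was therefore not clear-cut, and the adjusted p-values with the block depend on it. No pair of libraries of a group agreed within sampling noise, with the lowest chi-square per gene at 24.0 in set 1 and 3.01 in set 2. In set 2, replicate 4 stood apart in both groups. Pairs with it within a group were at 20.1 to 33.9, against 3.01 to 5.22 among replicates 1 to 3. The replicate 4 libraries of hairpin 2 and control 2 were at 20.7 from each other. Figures were made with matplotlib 3.10.9.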

Additional observations from a re-analysis of the deposited data

Results flagged for a closer look

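Of 42 groups of 4 libraries examined for one library far from the others, 3 had one, and chance flags about 1 in 20 such groups. Atg16l1 was at 75.4 CPM in control 2 replicate 4, where the other control 2 libraries were at 68.7 to 69.3 CPM. Gabarapl1 was at 104 CPM in control 2 replicate 4, where the others were at 87.75 to 90.5 CPM. Kcnh2, a neighbour of Atg9b, was at 39.5 CPM in hairpin 2 replicate 4, where the other hairpin 2 libraries were at 31.7 to 32.8 CPM. All 3 were replicate 4 libraries of set 2, which also stood apart over all genes, as given above.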

How the results depend on the processing

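With hairpin 2, against 854 genes, 1321 passed with DESeq2's Wald test, 2880 with the replicate block, 120 in one model of all 14 libraries, 2466 with voom quality weights, 2396 without both replicate 4 libraries, and 453 to 1409 on leaving out 1 library (453 without control 2 replicate 2, 1409 without hairpin 2 replicate 4). Of the autophagy genes, against 4, the block called 14, the model of all libraries 0, voom 13, leaving out both replicate 4 libraries 11, and leaving out 1 library 3 to 7 (7 without hairpin 2 replicate 4). With hairpin 1, against 0 genes, DESeq2 called 18, the model of all libraries 187 with 1 autophagy gene, voom 8, and leaving out 1 library 0 to 1, where the 1 is Atg9b, which was chosen from those libraries, so that it is a description and no call. The block in set 1 called 0. For the difference between hairpins, against 62, DESeq2 called 398 and leaving out 1 library gave 27 (without hairpin 2 replicate 1) to 959 (without hairpin 1 replicate 1), with 248 without control 1 replicate 2 and 94 without hairpin 1 replicate 3. The causes were not tested.

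The values below changed sign under an alternative, and none passed its own test there. The mean difference of log2 CPM of Atg9b with hairpin 2, -0.015, ranged from -0.075 to 0.055 on leaving out 1 library, and its log2 fold change from -0.068 to 0.062, with 0.056 by voom and 0.037 without both replicate 4 libraries. Atg9a with hairpin 2 ranged from -0.055 to 0.088, with 0.0013 by DESeq2, 0.075 by voom and 0.076 without both replicate 4 libraries. Atg9a with hairpin 1 ranged from -0.86 to 0.56, with -0.19 under the block and -0.72 by voom. Map1lc3b with hairpin 1 ranged from -0.19 to 0.34, with 0.0095 by DESeq2 size factors, 0.017 by DESeq2, 0.036 under the block, 0.0048 in the model of all libraries and 0.16 by voom. By voom, hairpin 1 values were -0.023 for Sqstm1, -0.20 for Gabarapl1, -0.10 for Vps41 and 0.054 for Gla. On leaving out 1 library, hairpin 1 values ranged from -0.065 to 0.70 for Sqstm1, -0.19 to 0.43 for Gabarapl1, -0.076 to 0.21 for Vps41, -0.15 to 0.14 for Gla, -0.0027 to 0.17 for Stx17, -0.12 to 0.066 for Atg5, -0.28 to 0.0086 for Atg16l1, -0.39 to 0.12 for Ulk1 and -0.92 to 0.011 for Hmgxb3. Hairpin 2 values ranged from -0.38 to 0.11 for Asic3, -0.0012 to 0.050 for Hmgxb3, -0.051 to 0.0012 for Sap130, -0.010 to 0.086 for Map1lc3b and -0.077 to 0.027 for Gabarapl1. Of all values of single named genes under the alternatives, 649 kept their direction and side of the threshold, 45 changed sign, 11 passed the threshold under the alternative alone, 10 no longer passed it and 2, without a test, moved. Ulk2, Vps41 and Gla kept their call on leaving out any 1 library of set 2, with adjusted p of at most 0.0481. Beside the 10 autophagy genes given in the report, the replicate block brought Kmt5c, Fastk and Kcnh2 past the threshold with hairpin 2, and no core gene.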
